A study of Mus musculus with 4 samples.

Results

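The nuclear-encoded genes of the mitochondrial respiratory chain were examined in a map of RNA bound by DHX9, an RNA helicase that unwinds RNA duplexes, in mouse embryonic stem (ES) cells. Members were chosen by symbol from the nuclear protein-coding genes of mm10: every gene whose symbol starts with Nduf, Uqcr or Atp5, the genes Sdha to Sdhd, and every gene whose symbol starts with Cox followed by a digit from 4 to 8. This gave 96 of 21887 genes, of which the symbols place 49 in complex I, 4 in complex II, 8 in complex III, 18 in complex IV and 17 in complex V. Ndufa4 and Ndufa4l2 stand among the 49 by symbol alone. The 8 Ndufaf genes, whose products help to build complex I and are not part of it, stand there as well.

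The cells were WT26, a feeder-independent male ES cell line of the strain C57BL/6x129sV, kept with LIF and without any other treatment named in the labels. FLASH, a form of CLIP-seq, was applied to them: RNA was crosslinked to protein with ultraviolet light, and the RNA that came down with an antibody was sequenced. A rabbit antibody against DHX9 was used in 2 pulldowns and control rabbit IgG in the other 2, each pair labelled as biological replicates A and B, and all 4 samples come from this single line. The deposited result is 1 list of 59563 stranded peaks with a median width of 196 bases. It holds no score, no read count and nothing per pulldown, so the depth behind a peak is unknown, no value has a replicate error, and the IgG samples enter only through the authors' calling. Of 10 ES cell marker genes, listed with earlier results of these data known, 9 held a peak, and Dppa5a did not. At the share of protein-coding genes of like length, 1.802 of them would have held one. Of 8 fibroblast or feeder markers, where length gave 2.297 genes, Fn1 held 63 peaks, Loxl1 held 1 and the others 0. This share, 25%, was close to the 22.8% of all nuclear protein-coding genes. Of 9 markers of differentiated cells, where length gave 2.094 genes, Tubb3 held 7 peaks and the others 0.

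The respiratory chain sits in the inner mitochondrial membrane and makes most of the ATP of many tissues. Complexes I and II pass electrons from NADH and succinate to ubiquinone, complex III passes them on to cytochrome c, and complex IV passes them to oxygen. Complexes I, III and IV pump protons as they do so, and complex V, the ATP synthase, uses the returning protons to make ATP. Most subunits are encoded in the nucleus, made in the cytosol and imported, while a small set of core subunits is encoded on the mitochondrial genome and lies outside the rule used here. The list gives binding and not RNA level, so more binding and more RNA of a gene cannot be told apart.

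DHX9 peaks were found in 39 of the 96 genes, and the other 57 held none. Genes with a peak are called bound below, while a gene without one is not shown to be unbound. The share was 40.6%, with a 95% Wilson interval of 31.4 to 50.6% that covers counting error over genes only. Over all nuclear protein-coding genes 22.8% held at least 1 peak. The members are short, with a median gene length of 7.23 kb against 17.2 kb for all protein-coding genes, and longer genes held peaks more often. If each member had held a peak as often as the protein-coding genes of its length decile, 15.2 of them would have done so. The observed count was 2.56 times that number. No difference between the members and other genes was tested, since genes of 1 list are not replicates.

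The members' share stood above that of genes of like length in the second to the sixth length decile. In the shortest decile of genes none of 8 members held a peak, against 2.33% of all genes there. In the fourth decile, where the members were most numerous, 14 of 22 held a peak, against 18.4% of all genes. In the deciles just below it 6 of 20 and 5 of 21 did, against 6.26% and 11.3%, and in those just above it 6 of 10 and 4 of 6, against 25.6% and 27.5%. Longer members were few, with a peak in 2 of 5, 1 of 1 and 1 of 3 in the next deciles, against 33.1, 35.1 and 37.9% of all genes.

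**Figure D1:**
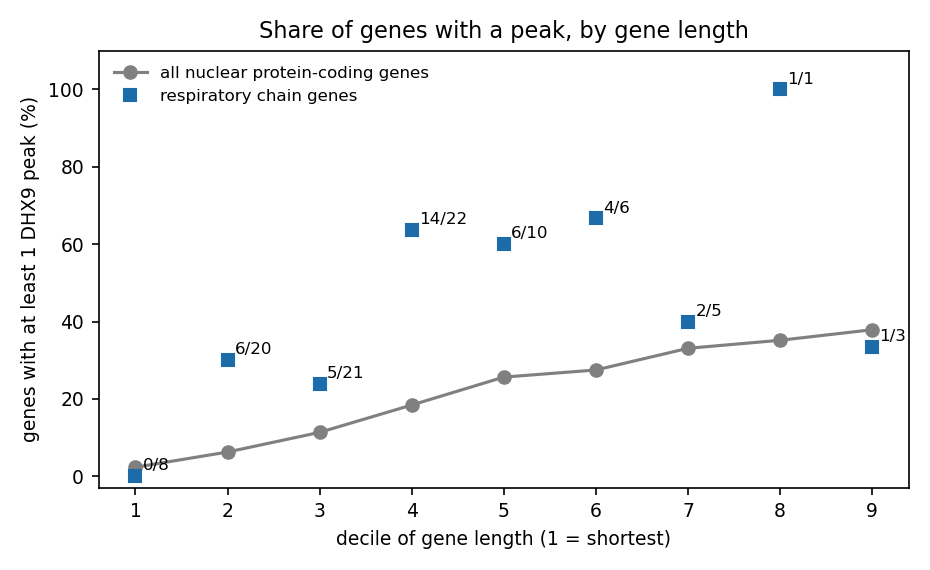
Share of genes with at least 1 DHX9 peak (percent, vertical axis) in each length decile of nuclear protein-coding genes (horizontal axis), for the members (squares, with the number bound of the number in the decile) and for all such genes (joined circles). The members stand above all genes in the fourth decile, at 14 of 22 against 18.4%, and at 0 in the first decile, where there are 8.

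The 39 bound genes held 252 peaks. These were spread unevenly: 13 genes held 1 peak each, 13 held 2 to 9 and together 53, and 13 held 10 or more and together 186, which is 73.8% of all. Over all protein-coding genes 7.28% held 10 or more. Counted over the full length of all members there were 0.214 peaks per kb, and over the bound members alone 0.453 peaks per kb. All protein-coding genes with a peak together had 0.183 peaks per kb. The median number of peaks in a bound member was 4, over a median length of 8.40 kb, against 5 in all bound protein-coding genes, over 31.4 kb. Length deciles gave 113 peaks for the 96 members, and the observed 252 were 2.24 times that number. Peaks of the members had a median width of 193 bases and ranged from 69 to 631 bases. Neighbouring peaks of a member were separated by a median of 198 bases, and 37 of the 213 gaps were 50 bases or less. Over all protein-coding genes the median was 248 bases, without matching for gene length.

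All 5 complexes contained genes with and without a peak. A peak was found in 34.7% of complex I genes (17 of 49, interval 22.9 to 48.7%), 50% of complex II (2 of 4, 15.0 to 85.0%), 50% of complex III (4 of 8, 21.5 to 78.5%), 50% of complex IV (9 of 18, 29.0 to 71.0%) and 41.2% of complex V (7 of 17, 21.6 to 64.0%). The intervals overlapped widely, so the shares of the complexes could not be told apart with so few genes. By genes with a peak, complex IV stood furthest from its length expectation, at 3.98 times the 2.26 genes that length gave. Complex II stood nearest, at 1.88 times 1.06 genes, close to complex I at 2.02 times. The order depended on the measure: by number of peaks, complex V stood furthest at 4.05 times and complex III nearest at 1.48 times. Over the full length of all genes, complex V had 52 peaks and 0.399 peaks per kb (95% counting interval 0.298 to 0.523), complex IV 50 and 0.244 (0.181 to 0.322), complex II 16 and 0.214 (0.122 to 0.347), complex I 124 and 0.177 (0.147 to 0.211) and complex III 10 and 0.155 (0.0745 to 0.286). These counting intervals take peaks as independent, although peaks gathered in a few genes of each complex. They are therefore too narrow to tell the densities of the complexes apart. Over the bound genes alone the order changed, with 0.788 peaks per kb in complex IV, 0.763 in V, 0.406 in II, 0.379 in III and 0.346 in I.

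**Figure D2:**
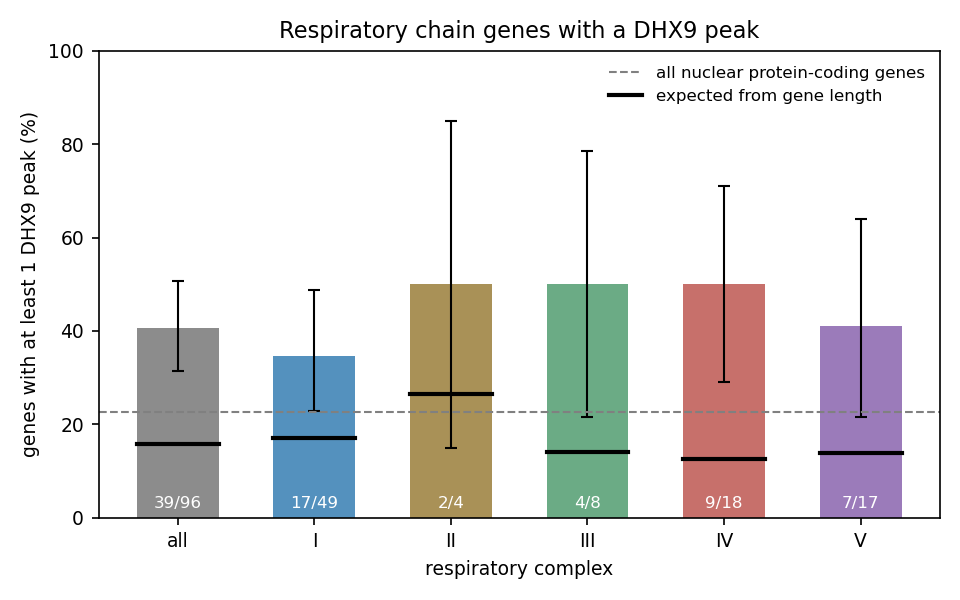
Share of genes with at least 1 DHX9 peak (percent) for all members and for complexes I to V (bars from 0, with 95% Wilson intervals and the counts of genes), beside the share given by gene length (black lines) and the 22.8% (dashed line) of all nuclear protein-coding genes. All 5 complexes lie above the share that length gave, and their intervals overlap one another.

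In complex I the peaks gathered on the genes of the catalytic core. The 7 nuclear core genes encode the flavin and iron-sulfur subunits of the arm that takes electrons from NADH and those that hand them to ubiquinone. Of these, 5 held a peak, where length gave 1.41, and they carried 64 of the 124 peaks at 0.641 peaks per kb. Of the 34 other Nduf genes 8 held a peak, where length gave 5.39, with 55 peaks in all. Of the 8 Ndufaf assembly genes 4 held a peak, where length gave 1.63, but only 5 peaks in all, and none of them held 3 or more. Their number of peaks was 0.284 times its length expectation, against 5.82 times in the core and 1.43 times in the 34 other Nduf genes. The assembly genes thus stood above their length expectation by genes with a peak and below it by peaks.

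Ndufs1, the large iron-sulfur subunit of the NADH-oxidising arm (chromosome 1, 63143592 to 63176822), held 22 peaks over 33.2 kb, the most of any member. Most lay towards its ends, with 13 peaks in the first 20% of the gene body and 5 in the last 20%. Of the 22, 6 also lay inside the long non-coding RNA gene Ino80dos, which overlaps Ndufs1, among them all 5 in the last 20%. Without these 6, Ndufs1 held 16 peaks, against 20 each in Ndufa7 and Ndufv2. The direction of Ndufs1 was taken from its peaks. Ndufv2, an iron-sulfur subunit of the same arm (chromosome 17, 66078795 to 66101559), held 20 peaks over 22.8 kb. All of its peaks lay within the first 9176 bases by midpoint, so that most of its length carried none. Ndufs3, a core subunit of the arm that reaches ubiquinone (chromosome 2, 90894627 to 90904721), held 16 peaks over 10.1 kb. Unlike those of Ndufv2, these continued to the last 20% of the gene, from 1480 bases after its start on, and covered 41.2% of it, at 1.58 peaks per kb. Ndufs7, an iron-sulfur subunit, held 1 peak, which also lay in a tRNA gene and before the annotated transcript start of Ndufs7. Ndufv1, which binds the flavin, and Ndufs8, an iron-sulfur subunit, held none.

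Outside the core, 3 accessory genes carried 44 of the 55 peaks. Ndufa7 (chromosome 17, 33824572 to 33838316) held 20 peaks over 13.7 kb, Ndufa13 (chromosome 8, 69894163 to 69902558) held 13 over 8.40 kb, and Ndufab1, the mitochondrial acyl carrier protein, held 11 over 15.0 kb. In each of these the first 50% of the gene held more peaks than the rest, and the last peak of Ndufab1 lay 8559 bases from its start. Ndufv3 held 4 peaks, Ndufb1 3, Ndufb3 2, and Ndufb9 and Ndufc2 1 each. Among the assembly genes Ndufaf5, whose product modifies Ndufs7, held 2 peaks, and Ndufaf1, Ndufaf2 and Ndufaf6 held 1 each. No peak was found in Ndufa1, Ndufa2, Ndufa3, Ndufa4, Ndufa4l2, Ndufa5, Ndufa6, Ndufa8, Ndufa9, Ndufa10, Ndufa11, Ndufa12, Ndufaf3, Ndufaf4, Ndufaf7, Ndufaf8, Ndufb2, Ndufb4, Ndufb4b, Ndufb4c, Ndufb5, Ndufb6, Ndufb7, Ndufb8, Ndufb10, Ndufb11, Ndufc1, Ndufs4, Ndufs5, Ndufs6, Ndufs8 or Ndufv1.

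Complex II, which is also an enzyme of the citric acid cycle, had 2 genes with peaks and 2 without. Sdhb, its iron-sulfur subunit (chromosome 4, 140961271 to 140979198), held 10 peaks over 17.9 kb, all between 864 and 5176 bases from the start by midpoint. Sdhc, a membrane anchor (chromosome 1, 171129157 to 171150640), held 6 peaks over 21.5 kb, all between 10811 and 16553 bases from the start, in a direction taken from the peaks. The runs thus sat in different parts of the pair. Sdha, the flavin subunit that oxidises succinate, and Sdhd, the other anchor, held none.

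Complex III held 10 peaks, 6 of them in 1 gene. Uqcrc1, a core subunit that faces the matrix (chromosome 9, 108936648 to 108949641), held these 6 over 13.0 kb, within 3332 bases of the start. The small subunit genes Uqcrq, Uqcr10 and Uqcrh held 2, 1 and 1. The single peak of Uqcrh also lay in the overlapping pseudogene Gm12854. No peak was found in Uqcrc2, Uqcrb, Uqcr11 or Uqcrfs1, the last of which encodes the Rieske iron-sulfur subunit.

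Complex IV held both the densest member and the largest set of isoform genes without a peak. Cox6a1 (chromosome 5, 115345652 to 115348958) held 10 peaks in 3.31 kb, and these covered 82.3% of the gene. At 3.02 peaks per kb it ranked 1 of the 2540 protein-coding genes with 5 or more peaks. The rank rested on closely spaced peaks: joining peaks within 50 bases left 4, at 1.21 per kb, and a rank of 177. Cox6b1, which binds at the face where cytochrome c docks (chromosome 7, 30616971 to 30626114), held 11 peaks over 9.14 kb, the first of them 3389 bases from the start. Cox7a2l, known for its part in joining complexes into supercomplexes (chromosome 17, 83501917 to 83514333), held 11 over 12.4 kb. Cox7b (chromosome X, 106015700 to 106022450) held 7 over 6.75 kb, Cox4i1 (chromosome 8, 120668225 to 120674209) 5 over 5.99 kb and Cox7c (chromosome 13, 86044798 to 86046795) 3 over 2.00 kb. Cox5a, Cox6c and Cox8a held 1 each, and Cox5b, beside the isoforms named next, held none.

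Some complex IV subunits, and Ndufa4, come as pairs of genes, 1 widely expressed and the other known from muscle, testis, lung or other restricted settings. None of the 8 tissue-restricted genes, Cox4i2, Cox6a2, Cox6b2, Cox7a1, Cox7b2, Cox8b, Cox8c and Ndufa4l2, held a peak, where length gave 0.90 and the Wilson interval reached 32.4%. Of their 7 widely expressed counterparts 5 held 34 peaks in all, where length gave 0.91 genes. By pair, Cox6b1 held 11 peaks and Cox6b2 none, Cox6a1 held 10 and Cox6a2 none, Cox7b held 7 and Cox7b2 none, and Cox4i1 held 5 and Cox4i2 none. Cox8a held 1, with none in Cox8b or Cox8c. In the pairs of Cox7a2 with Cox7a1 and of Ndufa4 with Ndufa4l2 neither gene held a peak. Most of the restricted genes are short, with a median of 1.68 kb, but Cox7b2 spans 105 kb and also held none. With the restricted genes set aside, 9 of 11 complex IV genes were bound (81.8%, against 22.8% of all protein-coding genes), where length gave 1.54, at 0.613 peaks per kb. The genes set aside held no peak, so their removal could only raise these values. The list of pairs was drawn up with earlier results of these data known, and the RNA levels of the pairs were not analysed here.

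In complex V the peaks fell on a small number of densely covered genes. Atp5j2, subunit f of the membrane sector (chromosome 5, 145183704 to 145191541), held 16 peaks over 7.84 kb, at 2.04 per kb, and they covered 39.9% of the gene. Atp5b, the catalytic beta subunit (chromosome 10, 128083307 to 128090388), held 14 over 7.08 kb, at 1.98 per kb, and 48.1% of the gene lay under them. Atp5l, subunit g of the membrane sector (chromosome 9, 44913248 to 44920742), held 12 over 7.50 kb, at 1.60 per kb. These were, with Cox6a1 and Ndufs3, the 5 densest members by separate peaks. Atp5a1, the alpha subunit, held 6 peaks over 9.10 kb, and Atp5c1, the gamma subunit that turns inside the catalytic head, held 1.

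The catalytic head is built from 5 of the complex V genes, and 3 of them held a peak, Atp5b, Atp5a1 and Atp5c1, with 21 peaks in all. Atp5d and Atp5e, which complete it, held none. The c ring, which turns with the proton flow, is encoded by 3 genes for the same mature protein: Atp5g2 held 2 peaks, Atp5g3 1 and Atp5g1 none. No peak was found in Atp5pb, Atp5k, Atp5h, Atp5mpl, Atp5j, Atp5o or Atp5md.

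**Figure D3:**
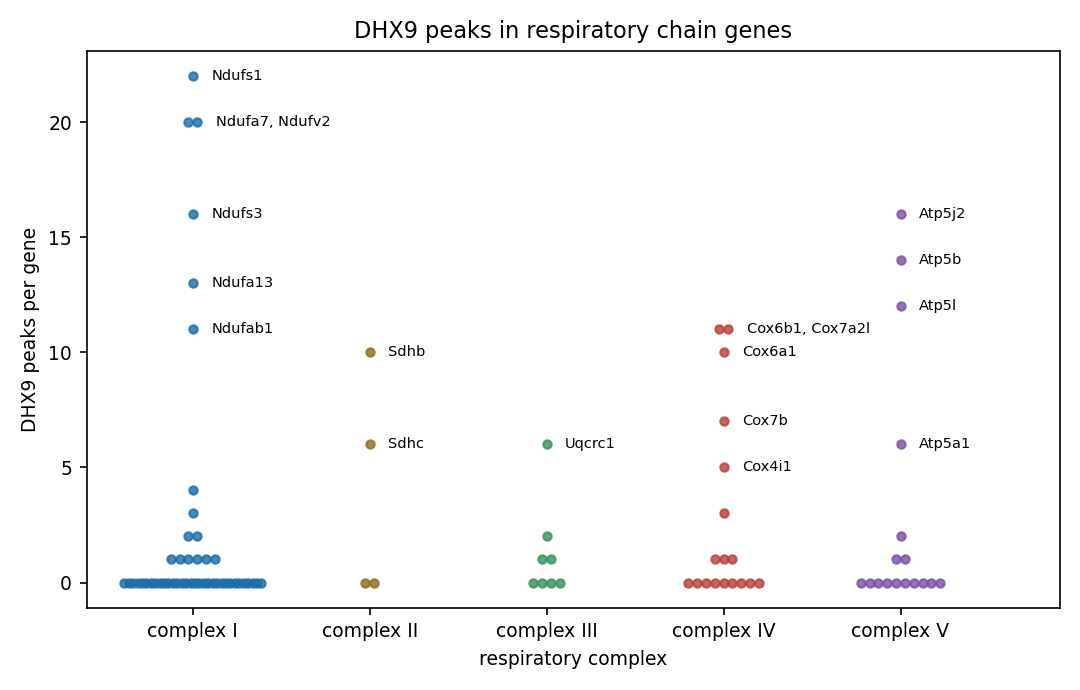
Number of DHX9 peaks per gene (vertical axis) by respiratory complex (horizontal axis); each point is 1 gene, 95 genes are drawn, and those with 5 or more peaks are named. Ndufs1 has the most with 22, of which 6 also lie in another gene, 13 genes have 10 or more, and 57 lie at 0.

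The genes without a peak were mostly far from any peak. Over the 57 of them the median distance to the nearest peak of any gene was 39797 bases, 20 had one within 10 kb and 6 within 1000 bases. The nearest were Atp5d at 12 bases, Ndufb7 at 96 and Ndufb10 at 360. The assembly also lists 19 pseudogenes with family symbols, of 134 to 1718 bases, and none of them overlapped a peak.

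All 252 peaks lay on a single strand in each gene, with none on the opposite strand in any of the 26 genes that held 2 or more. For 30 bound members the reference gives the strand of the gene, and all of their 203 peaks lay on the sense strand. The remaining 49 peaks lay in 9 members whose strand is not in the table used here, where only the agreement among peaks could be read. In other protein-coding genes 2.02% of all peaks were antisense, and of the 43277 peaks that lay in no other gene 430 were (0.994%).

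Peaks were more frequent in the first part of the gene body. With the gene body divided into 5 equal parts from start to end, these held 29.0, 28.6, 20.6, 13.1 and 8.73% of the 252 peaks, and the first 50% of the body held 67.9%. In other protein-coding genes, with peaks weighted to the members' length deciles, the 5 parts held 19.95, 24.8, 22.9, 18.6 and 13.8%, and the first 50% held 56.2%. Without weighting by length, other genes between 2.00 and 106 kb had 25.5% of their peaks in the first part, inside the members' 95% interval of 23.7 to 34.9%, and 60.2% in the first 50%. That interval takes peaks as independent, although the 252 come from 39 genes, and is too narrow. With each member given the same weight, the first and last parts held 30.4 and 8.23%. Other bound genes, each given the same weight within a length decile, had 19.3 and 18.1%, and 23.3 and 16.0% without weighting by length. In 21 of the 39 genes the first 20% of the body held more peaks than the last 20%, and in 7 it held fewer. Leaving out Ndufs1 gave 26.1 and 7.39%.

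By share of peaks, the slope towards the start was steep in complex I and absent in complex IV. In complex I the first 20% of the gene body held 35.5% of peaks and the last 20% held 8.06%. Complex V had 23.1 and 3.85%, and complex II 31.2 and 0%. In complex IV the first 20% held 14% of peaks and the last 20% held 18%. Of the 9 peaks in the last 20%, Cox6a1 and Cox6b1 held 3 each, Cox4i1 2 and Cox7c 1. Complex III had 50 and 10% of only 10 peaks. Counted by gene, the first 20% held more peaks than the last 20% in 10 of 17 bound complex I genes and fewer in 2. In complex IV it held more in 4 of 9 and fewer in 3. A peak within 500 bases of the start was found in 5 of the 17 and 4 of the 9. Of the 44 peaks in the first 20% in complex I, Ndufs1 held 13, and Ndufa7 and Ndufv2 8 each. Of the 10 in the last 20%, Ndufs1 held 5, all of which also lay in Ino80dos. These differences between complexes rest on 2 to 17 genes each and were not tested.

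**Figure D4:**
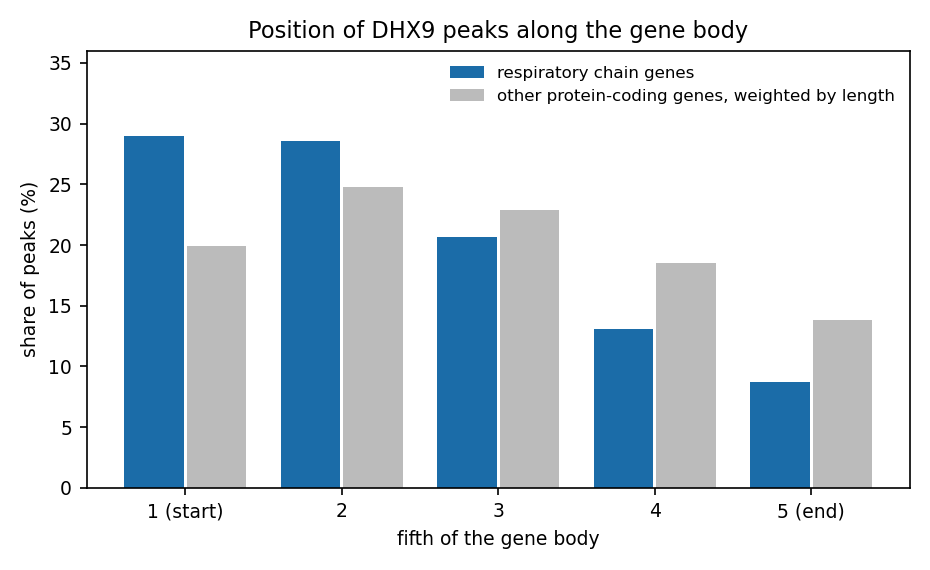
Percent of DHX9 peaks (vertical axis) in each of 5 equal parts of the gene body from the start to the end (horizontal axis), for the 252 peaks of the members and for other protein-coding genes weighted to the same length deciles. The members hold 29.0% in the first part and 8.73% in the last, against 19.95 and 13.8% in the other genes.

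**Figure D5:**
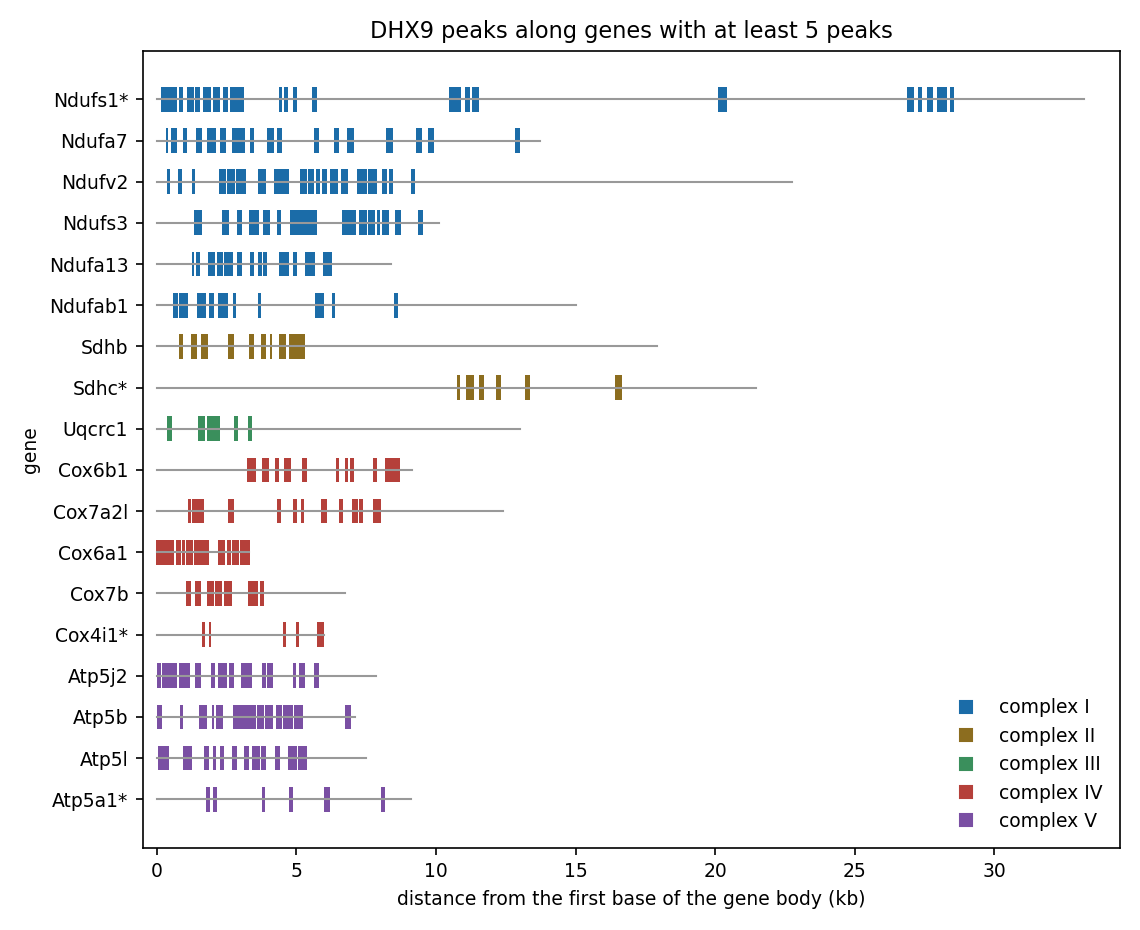
Position of every DHX9 peak (kb from the gene start, horizontal axis) in 18 members with 5 or more peaks, 1 row per gene, with a line for the gene body and an asterisk where direction was taken from the peaks. Peaks of Ndufv2 and Sdhb stop well before the gene end, those of Sdhc lie in its second part, and those of Cox6a1 and Ndufs3 run through the gene.

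Near the start itself, 15 of 39 bound members (38.5%) held a peak midpoint within 500 bases, against 19.6% of other bound protein-coding genes weighted to the length deciles of the bound members. Within 500 bases of the gene end 4 members did (10.3%), against 16.5% of the others, weighted alike. Without weighting by length, the shares of other genes between 2.00 and 106 kb were 14.4 and 8.83%. In 5 genes a peak spanned the annotated transcript start of the RefSeq promoter table: Atp5b, Atp5j2, Cox5a, Cox6a1 and Cox7c. The peak began 3 bases before the start in Atp5b, 2 in Atp5j2, 8 in Cox5a, 24 in Cox6a1 and 1 in Cox7c. Those of Atp5l and Cox8a began 35 and 48 bases after it. The annotated start of Cox5a lies 3904 bases inside its gene body, and the peak there was its only one.

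The sequences of the 5 starts spanned by a peak show the peak edge in relation to the annotated first base. Each is 80 bases of RefSeq sequence (GRCm38.p6) on the strand of the gene, 50 before the start and 30 from it on, with the bases under the peak in capitals. They are, for Atp5b, chr10:128083257-128083336 on the plus strand, for Atp5j2, chr5:145191512-145191591 on the minus strand, for Cox5a, chr9:57521182-57521261 on the plus strand, for Cox6a1, chr5:115348929-115349008 on the minus strand, and for Cox7c, chr13:86046766-86046845 on the minus strand.
Atp5b: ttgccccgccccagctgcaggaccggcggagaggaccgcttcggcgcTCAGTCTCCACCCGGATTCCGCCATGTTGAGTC
Atp5j2: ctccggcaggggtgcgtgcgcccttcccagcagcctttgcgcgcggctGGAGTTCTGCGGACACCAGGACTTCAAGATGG
Cox5a: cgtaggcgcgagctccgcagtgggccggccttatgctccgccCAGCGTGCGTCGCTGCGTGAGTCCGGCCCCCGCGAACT
Cox6a1: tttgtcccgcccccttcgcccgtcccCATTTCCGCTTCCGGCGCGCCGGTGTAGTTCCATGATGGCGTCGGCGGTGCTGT
Cox7c: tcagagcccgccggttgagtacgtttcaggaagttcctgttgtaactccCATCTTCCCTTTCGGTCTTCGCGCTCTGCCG
The 5 were chosen because a peak spans the start, so that choice fixed the edge on the upstream side. In 4 of the 5 this edge stood within 8 bases of the annotated start, and in Cox6a1 it stood further upstream. The GC content of these 80 bases ran from 56.2% in Cox7c to 73.8% in Cox5a.

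Small RNA genes lay inside 6 members, 7 in all, and 4 of the 7 were overlapped by a peak. In Atp5b a peak of 97 bases covered all 75 bases of the snoRNA gene Snord59a, and a peak of 91 bases covered all 78 bases of Mir677 (chr10:128085286-128085363). In Cox7c a peak of 134 bases covered all 60 bases of the snoRNA gene Gm22574. In Ndufs7 the only peak, the narrowest of all 252 at 69 bases, covered 49 of the 74 bases of the tRNA gene n-TNgtt7 (chromosome 10, 80249159 to 80249232). No peak overlapped Mir6900 in Ndufa10, the snoRNA gene Gm23608 in Atp5c1 or the snRNA gene Gm23264 in Ndufv2. A peak on a small RNA gene inside a host could come from the small RNA or from the host transcript, and which of them was not tested. Without peaks that lay in another gene, 37 of 96 members held a peak, against 21.4% of all protein-coding genes.

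The products of Mir677, which lies wholly under a peak of Atp5b, are given from RefSeq with the seed, bases 2 to 8, in capitals.
mmu-miR-677-5p: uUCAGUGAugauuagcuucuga
mmu-miR-677-3p: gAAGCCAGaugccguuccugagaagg
The seeds of the arms differ, and the peak does not tell which arm, if any, was bound.

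Other genes of the pathway were listed apart from the symbol rule. The cytochrome c genes Cycs and Cyct and the complex III gene Cyc1, whose name the rule misses, held none. Of 7 genes that feed electrons to ubiquinone by other routes 3 held 5 peaks in all, where length gave 2.15 genes: Etfa and Gpd2 2 each and Dhodh 1. Of 47 assembly genes outside the rule 15 held a peak, where length gave 9.41, with 74 peaks. Cox16 led with 16 peaks, all of which lay in another gene as well, and Ttc19 followed with 13, of which 7 lay in no other gene, and Lrpprc, which stabilises mitochondrial mRNA, with 11. Like those of Cox16, the 4 peaks of Ecsit and the 4 of Cox20 all lay in another gene as well. The complex II assembly genes Sdhaf2 and Sdhaf3, which stand among these 47, held 1 each.

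Of 13 citric acid cycle genes 7 held a peak, where length gave 3.70, with 87 peaks. Ogdh, a subunit of the oxoglutarate dehydrogenase complex, held 37, and Cs, citrate synthase, held 27, with 21 of them outside any other gene. Of 13 regulators of respiratory gene expression 9 held a peak, where length gave 3.61, with 121 peaks. Nrf1, a transcription factor of many respiratory genes, held 69, Pprc1, a coactivator, 24, and Polrmt, the mitochondrial RNA polymerase, 8. Their median lengths, 24.3 and 27.2 kb, were above the 7.23 kb of the members, so peak counts of the lists are not on a common scale.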

How the data were processed

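The authors deposited a single list of peaks, made with PEAKachu per the file's source column. The sources used here do not give its version, its settings or the use made of the IgG samples. The submitters' processing notes name Bowtie2 2.2.6 and both hg19 and mm10. The chromosome and scaffold names of the list are those of mm10. Per the labels' protocols, random tags served to merge PCR duplicates, and the IgG and DHX9 material was pooled ahead of RNA isolation. The deposited columns used were other than counts or signal: each peak's outer bases and its strand.

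Genes came from a RefSeq table of GRCm38.p6. A peak was assigned to each gene whose body held its midpoint. Strand and starts came from the RefSeq promoter table for 78 of 96 members, and direction from the peaks in 9 bound members. Length-based counts used deciles of protein-coding genes. No test was run. Members, lists and pairs were chosen with earlier results of these data known. Values are given in full for the 4 members with most peaks in each complex, the 5 densest, the isoform pairs and up to 3 genes of each list. Exons and introns were not analysed here. Scripts (Python 3.11.15, pandas 2.3.3) were tested on simulated data. Results for 2 genes are not reported here, and 1 of them is not drawn.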

Additional observations from a re-analysis of the deposited data

How the results depend on the processing

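The list holds 1 set of peaks for all samples, so no replicate could be left out. No paired analysis was possible because no value is given per replicate. Of 49 alternatives over 24 results, 38 moved the value by less than its counting interval (for counts of genes, by at most 1.5 times). With at least 3 peaks required, 22 members passed (background 14.8%; 2.35 times the length expectation), 9 in complex I, 1 in complex III, 6 in complex IV and 4 in complex V, and 4 citric acid cycle and 8 assembly genes. Peaks of at least the median width left 11 complex I genes (22.4%, against 17.1% of all genes). Merging peaks within 50 bases gave 0.183 peaks per kb and bound members alone 0.453. The first 10% of the gene body held 15.1% of peaks and the last 10% held 3.57%. The alternatives for isoforms, small RNA genes, annotated starts and pathway lists, and the weighting of whole genes by length decile, were added after seeing the data. With no depth, score or control values, a gene without a peak is not shown to be unbound.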

Other observations

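Motifs of regulators known from respiratory chain promoters were counted on both strands in the 300 bases around each start (250 before, 50 after) of the 78 members in the RefSeq promoter table, beside 17492 protein-coding promoters. The NRF1 motif GCATGCGC stood in 12 member promoters (15.4%) against 3.61% of all, among them those of Atp5l, Cox6a1, Sdhb and Uqcrc1, which held DHX9 peaks, and of Atp5k and Uqcr11, which did not. The ETS motif CCGGAAG stood in 18 (23.1%) against 11.9%, and the YY1 motif AAGATGGC, which can run into a start codon, in 10 (12.8%) against 3.21%. Among the members, 6 of 30 with a DHX9 peak and 6 of 48 without one held the NRF1 motif, 8 of 30 and 10 of 48 the ETS motif, and 2 of 30 and 8 of 48 the YY1 motif. Over all promoters of genes with a DHX9 peak, the shares were 6.89% for NRF1, 22.0% for ETS and 6.91% for YY1. These counts are small and were not tested. Matches describe letters only and not bound factors. Median GC content was 57.8% in member promoters and 56.3% in all. Among genes with a peak it was 57.0% in the members and 61.7% in all.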
